A study of Mus musculus with 56 samples.

Results

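Imprinted genes outside the Ube3a region were followed in cultured mouse cortical neurons: Meg3, Rian, Mirg, Dlk1, Peg3, Plagl1, Igf2, H19, Cdkn1c and Nnat. The 10 genes were named with earlier results of these data known, and every array probe set that carries only the symbol of 1 of them was taken. This gave 49 probe sets for 9 of the 10 genes, out of 79697 probe sets for 23600 genes on the 3 array types together. Each array type counts its own probe sets, so a gene can appear 3 times. On the 3' and later arrays H19 shared its probe set with Mir675, the microRNA it hosts. On the earlier arrays no probe set carried its symbol, so H19 has no value here. Mirg had probe sets of its own on the 3' arrays alone.

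The cultures came from C57BL6 embryos of embryonic day 13 to 15, were grown for 7 days in vitro and were exposed to drug for 24 or 72 hours. Total RNA was measured on 56 arrays of 3 types. On 12 arrays with probes near the 3' end of transcripts, topotecan was given at 300 nM and ICRF-193 at 3 µM, each with vehicle arrays of its own and 3 arrays a group. On 10 arrays of an earlier gene-level type, a topotecan series of 3, 30, 150, 300 (2 arrays), 500 and 1000 nM was set against 3 vehicle arrays. On 34 arrays of a later gene-level type there were several experiments. These were topotecan at 1 µM against vehicle (6 arrays each), and irinotecan at 10 µM (3 arrays) against 2 vehicle arrays. They also held lentiviral shRNA against Top1 or Top2b against control shRNA (3 arrays each). Single arrays of topotecan for 24 h with and without washout were set against the irinotecan vehicles. A single array of DRB at 100 µM was set against 1 vehicle array. The oxidants paraquat (10 µM) and hydrogen peroxide (100 µM) had 1 array each and shared 2 vehicle arrays. The labels do not say which arrays came from separate cultures, so the p-values measure the spread between arrays, which may be partly technical.

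Imprinted genes are expressed mainly from the copy inherited from 1 parent. Dlk1, Meg3, Rian and Mirg lie in that order in an imprinted region of mouse chromosome 12. Dlk1, a membrane protein that restrains differentiation, is expressed from the paternal copy. Meg3, Rian and Mirg are non-coding RNAs of the maternal copy, transcribed in 1 direction, and Rian and Mirg host clusters of small nucleolar RNAs and microRNAs. The growth factor Igf2 and the cell cycle inhibitor Cdkn1c lie in neighbouring imprinted domains of chromosome 7, as does H19. Peg3 and Plagl1 are zinc finger proteins, and Nnat (neuronatin) is a small membrane proteolipid of neurons. The arrays do not separate the parental copies, so every value is the sum of both. Topotecan and irinotecan, a prodrug, are camptothecin derivatives that trap topoisomerase I on DNA. ICRF-193 blocks topoisomerase II, and DRB inhibits the kinase that releases paused RNA polymerase II.

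Members of this microRNA cluster are shown because their genes fell furthest among those of the cluster. They are the 3 with the largest called change in each of the topotecan 1 µM, irinotecan and Top1 shRNA comparisons, 6 genes after overlaps. Capitals mark the seed, bases 2 to 8, which pairs with target transcripts. All lie on the forward strand of chromosome 12 and the sequences are those of RefSeq for the GRCm38.p6 assembly.
miR-377-5p: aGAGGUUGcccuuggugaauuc
miR-377-3p: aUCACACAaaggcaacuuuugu
miR-300-5p: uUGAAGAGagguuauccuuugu
miR-300-3p: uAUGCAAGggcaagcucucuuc
miR-382-5p: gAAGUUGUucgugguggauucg
miR-382-3p: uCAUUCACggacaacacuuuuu
miR-541-5p: aAGGGAUUcugauguuggucacacu
miR-541-3p: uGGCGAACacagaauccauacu
miR-376b-5p: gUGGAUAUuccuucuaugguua
miR-376b-3p: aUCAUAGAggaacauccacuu
miR-379-5p: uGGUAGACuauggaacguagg
miR-379-3p: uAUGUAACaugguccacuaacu
These 12 mature sequences have 12 distinct seeds. Over the 52 of 57 listed small RNA genes with an entry there were 98 mature sequences and 91 seeds, and 7 seeds were shared by more than 1 gene of the cluster. The arrays measure transcripts of these loci and not the mature microRNAs.

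The Meg3 promoter, at chr12:109540746-109541045 on the forward strand, is shown because Meg3 lies first among the maternally expressed RNAs. The window runs 250 bases before and 50 bases after the RefSeq start. Capitals mark the matches to CCAAT, to TGACGTCA (the palindrome bound by CREB and ATF factors) and to TATAAA on either strand.
Meg3 promoter: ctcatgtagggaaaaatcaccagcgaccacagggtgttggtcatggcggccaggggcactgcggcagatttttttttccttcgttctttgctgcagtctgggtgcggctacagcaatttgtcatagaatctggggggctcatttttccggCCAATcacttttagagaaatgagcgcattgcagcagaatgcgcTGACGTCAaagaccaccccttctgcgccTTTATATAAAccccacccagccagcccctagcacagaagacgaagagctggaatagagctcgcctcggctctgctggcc
Counted from the start, TGACGTCA lies at -57 to -50 and CCAAT at -100 to -96. TATAAA lies at -25 to -20 on the forward strand and overlaps a reverse-strand match at -29 to -24. Of 32851 mouse promoter windows of the same length, 1.79% held TGACGTCA, 13.6% TATAAA and 37.4% CCAAT on either strand. Promoter entries were found for 8 of the 10 genes, and TGACGTCA was also in a Peg3 window. A match is a description and was not tested as a binding site.

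The level of a probe set is given as log2 intensity, and a change as the difference of log2 means, with its standard error (SE) from limma. A probe set was tested if its mean log2 value lay at or above the 40th percentile of its array type, the dim limit. Of the 49 member probe sets 41 passed, 26 on the 3' arrays, 7 on the earlier and 8 on the later arrays. Cdkn1c was below this limit on both gene-level types. The 11 Meg3 probe sets of the 3' arrays lay between the 93.8th and 99.9th percentile of brightness. The Meg3 probe set of the earlier arrays lay at percentile 98.3. That of the later arrays lay at the 48.8th percentile, with a mean log2 intensity of 5.50, near the dim limit. Whether the later probe set reports the same Meg3 transcripts was not tested, so its values are given by its symbol. Probe sets of 1 gene share transcripts and are not independent. A call means an adjusted p under 0.05 by Benjamini-Hochberg over all probe sets tested in that comparison.

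The labelled cell type was checked first. All neuron markers with a probe set above the dim limit (18 of 18 on the 3' and on the later arrays, 16 of 16 on the earlier) had a median brightness percentile between 93.2 and 94.7. Astrocyte and fibroblast markers were also mostly above the limit, 14 of 16 and 18 to 21 of 22. Their median percentiles were 71.4 to 85.5 and 63.5 to 82.9. Mural markers, with 7 to 11 of 16 above it, had medians of 38 to 50, near the limit itself. Medians were 48.7 to 63 for progenitor, 43.7 to 46.7 for microglia and 29.9 to 36.2 for oligodendrocyte markers. The cultures thus held RNA of other cell types, as read from the astrocyte and fibroblast lists. Beside the results of each replicated comparison stand the summed marker intensities that did not overlap between its groups. In such bulk samples fewer cells of a type and less RNA per cell cannot be told apart.

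At 300 nM topotecan the maternally expressed RNAs Mirg and Rian were lower and no member was called higher. Of the 26 member probe sets 2 were called, both lower, beside 3.21% called lower, 1.11% called higher and 4.31% called in either direction among all probe sets. Mirg 1457030_at read 7.70, 7.30 and 7.41 in topotecan cultures, against 9.33, 9.46 and 9.81 in vehicle cultures. The groups were far apart, and the log2 change was -2.06 ± 0.17 (SE, n = 3 each; limma adjusted p = 0.00197). The other Mirg probe set, 1440097_at, read 7.15, 6.93 and 7.73 in topotecan and 7.95, 8.48 and 8.82 in vehicle cultures, and did not pass (-1.15 ± 0.27, limma adjusted p = 0.0658).

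Rian 1428055_at read 8.14, 7.49 and 7.63 in topotecan cultures and 8.60, 8.90 and 9.35 in vehicle cultures. It fell by 1.19 ± 0.24 on the log2 scale (limma adjusted p = 0.0373). The remaining 3 Rian probe sets had changes of -0.95, -0.85 and -0.77, and none passed. The brightest of them, 1452899_at, read 12.55, 12.32 and 11.94 in topotecan and 12.83, 12.90 and 13.40 in vehicle cultures (limma adjusted p = 0.0927). The call of Rian 1428055_at was lost when either of topotecan replicates 2 and 3 or vehicle replicates 2 and 3 was left out, with adjusted p up to 0.14. Mirg 1457030_at remained called without any 1 array, at changes of -2.17 to -1.92.

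The 11 Meg3 probe sets had changes of -0.08 to -0.75 at 300 nM and none was called. Meg3 1426758_s_at read 12.83, 12.71 and 12.95 in topotecan and 13.48, 13.59 and 13.10 in vehicle cultures (-0.56, limma adjusted p = 0.0978). Its groups did not overlap. Overlap was not counted over all probe sets, so a gap between the groups is a description only. Another bright Meg3 probe set, 1452905_at, read 13.97, 13.74 and 13.73 in topotecan and 14.01, 13.99 and 13.95 in vehicle cultures, which overlapped. Going along the chromosome, the changes of the tested probe sets thus spanned -0.75 to -0.08 for Meg3, -1.19 to -0.77 for Rian and -2.06 to -1.15 for Mirg. The differences between these genes were not tested.

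The other members were not called at 300 nM. Dlk1 1449939_s_at read 6.79, 6.77 and 7.63 in topotecan and 7.92, 7.68 and 7.22 in vehicle cultures (-0.54 ± 0.28, limma adjusted p = 0.32). Igf2 1448152_at varied widely, with 10.68, 11.25 and 11.91 in topotecan and 13.05, 12 and 10.70 in vehicle cultures. Its interval of -1.97 to 0.70 (95%) allows a fall or a rise. Nnat read 12.70, 12.57 and 12.46 in topotecan and 12.03, 11.40 and 12.33 in vehicle cultures. All topotecan values lay above all vehicle values, but the change of 0.66 ± 0.23 did not pass (limma adjusted p = 0.169). Cdkn1c changed by 0.42 ± 0.26, the 3 Peg3 probe sets by -0.01 to 0.12 and the 2 Plagl1 probe sets by 0.04 and -0.15, none of them called. Astrocyte marker sums were 39500 to 48900 in topotecan and 63400 to 67400 in vehicle cultures, and fibroblast marker sums were 18200 to 34200 and 34600 to 53100. Of 14 astrocyte markers 5 fell. The part of cell composition in these values was not tested.

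ICRF-193, at 3 µM, gave 4 calls among the same 26 probe sets, 1 higher and 3 lower, beside 5.85% higher, 8.01% lower and 13.9% in either direction among all probe sets. The share of members called was close to that background. The called probe sets belonged to Igf2, Dlk1, Meg3 and Nnat. Igf2 1448152_at read 10.69, 10.68 and 10.67 with ICRF-193 and 11.12, 11.21 and 11.60 with vehicle, a change of -0.63 ± 0.11 (SE, n = 3 each; limma adjusted p = 0.0108). Dlk1 1449939_s_at read 6.37, 6.36 and 6.25 with ICRF-193 and 6.55, 6.59 and 6.52 with vehicle, a change of -0.23 ± 0.05 (limma adjusted p = 0.0202). Nnat read 11.78, 11.85 and 11.77 with ICRF-193 and 11.56, 11.57 and 11.58 with vehicle, and rose by 0.23 ± 0.04 (limma adjusted p = 0.0115). In each case the groups did not overlap. The spread between arrays in this experiment was small, so that changes of about 0.2 could be called.

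Meg3 1426758_s_at read 12.93, 12.68 and 12.79 with ICRF-193 and 12.99, 13.14 and 13.16 with vehicle, and fell by 0.30 (limma adjusted p = 0.0381). The other 10 Meg3 probe sets had changes of -0.18 to 0.17 and none was called. Rian had changes of -0.13 to 0.06 over its 4 probe sets, and Mirg of -0.25 and -0.05, none called. Samples with the same replicate number deviated together here, and with the replicate number as a block 7 probe sets were called. The additions were Cdkn1c (0.36, limma adjusted p = 0.0116), Meg3 1428764_at (0.17, limma adjusted p = 0.0409) and Mirg 1457030_at (-0.25, limma adjusted p = 0.0174). The shares of all probe sets given for ICRF-193 belong to the fit without the block, so the count of 7 has no background beside it. Without the block, the call of Nnat was lost without ICRF-193 replicate 2 (limma adjusted p = 0.0543). The call of Dlk1 was lost when ICRF-193 replicate 2 or 3 or vehicle replicate 1 or 2 was left out. That of Meg3 was lost without ICRF-193 replicate 2 or 3 or vehicle replicate 2 or 3. Of 14 tested astrocyte markers 11 fell, with sums of 36900 to 40400 with ICRF-193 and 48200 to 52300 with vehicle. Neuron sums were 82000 to 85700 with ICRF-193 and 77500 to 81500 with vehicle, and mural sums were 3070 to 3130 and 2490 to 2830. Their part in the Igf2 and Dlk1 values was not tested.

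The effects of the 2 drugs differed at Mirg. The topotecan change minus the ICRF-193 change of Mirg 1457030_at was -1.81 ± 0.20 (limma adjusted p = 0.00194). It was the only member probe set of 26 called for this difference, beside 2.07% called lower and 2.92% called in either direction among all probe sets. The count was 6 without topotecan vehicle replicate 1, 5 without topotecan replicate 1 and 2 without topotecan replicate 3, all lower. Of all probe sets 3.96%, 3.11% and 1.82% were called lower in these 3 fits. The doses differed, and the 2 compounds do not share a target enzyme.

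**Figure D1:**
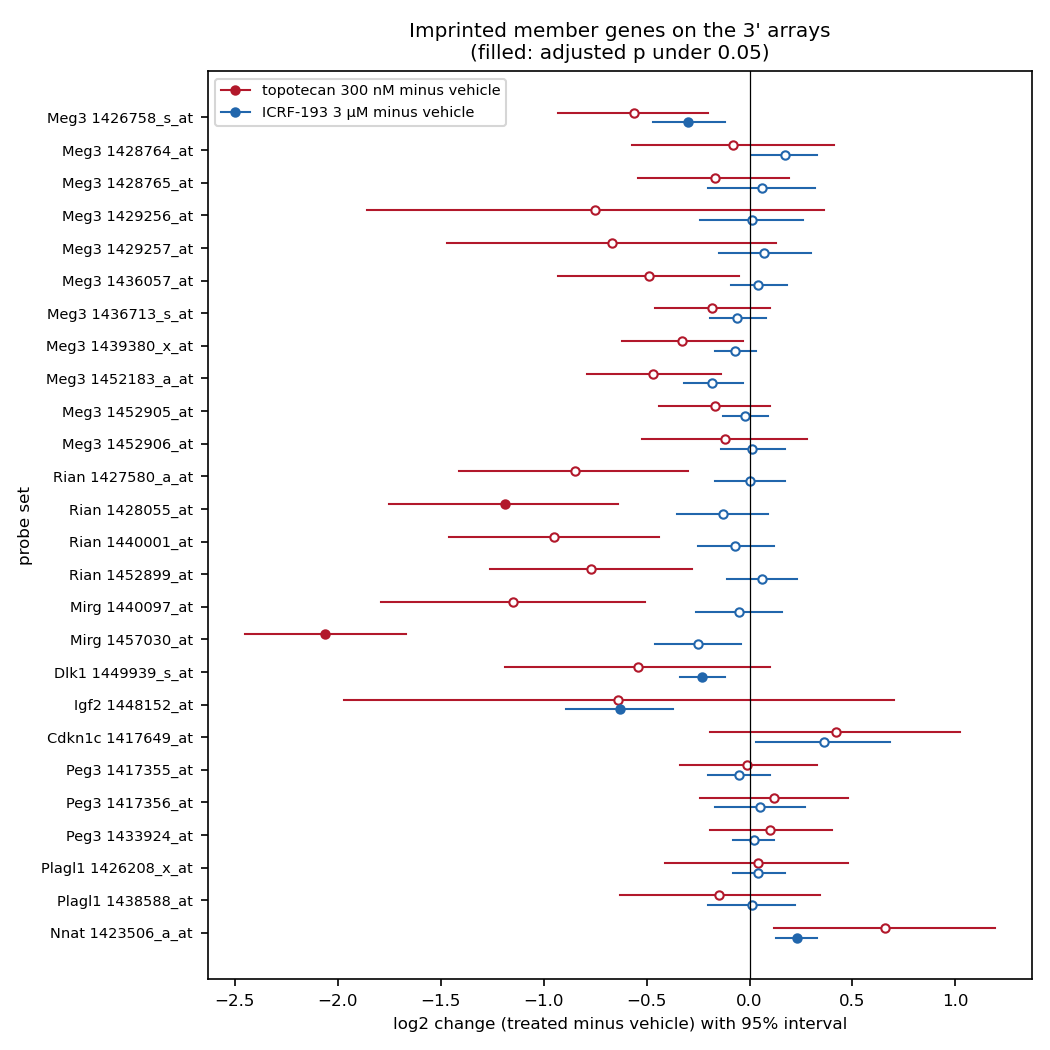
Log2 change (x axis, treated minus vehicle, with 95% interval) of the 26 tested member probe sets on the 3' arrays (y axis) for topotecan 300 nM (red) and ICRF-193 3 µM (blue), 3 arrays a group. Filled points have an adjusted p under 0.05. Mirg 1457030_at stands at -2.06 with topotecan and -0.25 with ICRF-193, and the Rian points lie between -1.19 and -0.77 with topotecan.

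At 1 µM topotecan, with 6 arrays a group, 2 of the 8 member probe sets of the later arrays were called, both lower, namely Rian and Dlk1. Among all probe sets 20.3% were called lower, 18.6% higher and 38.9% in either direction, so 2 of 8 is not above the background. Rian read 9.48, 9.50, 9.52, 9.73, 9.69 and 9.50 in topotecan cultures and 10.58, 10.46, 10.49, 10.20, 10.49 and 10.56 in vehicle cultures. The groups did not overlap, and the change was -0.90 ± 0.07 (SE, n = 6 each; limma adjusted p = 3.89e-07). Vehicle replicate 4 stood below the other 5, and without it the change was -0.95. Its summed neuron markers, 19100, were also the lowest of the vehicle arrays, which reached 25000.

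Dlk1 read 5.42, 5.64, 5.82, 5.36, 5.68 and 5.95 in topotecan cultures and 6.39, 6.65, 6.12, 6.42, 6.36 and 6.10 in vehicle cultures, without overlap (-0.70 ± 0.11, limma adjusted p = 0.000275). Mural and endothelial marker sums were 3410 to 4660 in topotecan and 4780 to 6640 in vehicle cultures. Astrocyte sums were 4610 to 5210 and 7430 to 8700, while fibroblast sums, 8300 to 11900 in topotecan cultures, overlapped the 6570 to 9690 of vehicle cultures. Oligodendrocyte sums were 479 to 588 in topotecan and 654 to 806 in vehicle cultures. Neuron sums, 16100 to 20900 in topotecan and 19100 to 25000 in vehicle cultures, overlapped. Their part in the Rian and Dlk1 values was not tested.

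Meg3 ranged over 5.16 to 6.10 in topotecan and 5.65 to 5.92 in vehicle cultures (-0.22 ± 0.13, limma adjusted p = 0.193). It was called without topotecan replicate 3, which held the highest Meg3 value (-0.33, limma adjusted p = 0.0229). Igf2 ranged over 6.31 to 7.57 in topotecan and 6.65 to 7.26 in vehicle cultures (-0.13 ± 0.21, limma adjusted p = 0.648). Changes of Peg3 (0.08), Plagl1 (-0.11) and the 2 Nnat probe sets (-0.11 and -0.18) were not called either. The 95% interval of the Peg3 change was -0.07 to 0.23.

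Irinotecan at 10 µM gave 5 calls among the 8 member probe sets, 2 higher and 3 lower, beside 15.3% higher, 11.3% lower and 26.6% in either direction among all probe sets. Rian read 9.81, 9.84 and 9.82 with irinotecan and 10.34 and 10.49 with vehicle. It fell by 0.59 ± 0.08 (SE, n = 3 and 2; limma adjusted p = 0.0024). Meg3 read 4.97, 4.78 and 4.85 with irinotecan and 5.44 and 5.49 with vehicle, near the dim limit of 4.96, and fell by 0.60 ± 0.08 (limma adjusted p = 0.00315). Igf2 read 5.82, 5.74 and 5.92 with irinotecan and 6.44 and 6.12 with vehicle (-0.46 ± 0.11, limma adjusted p = 0.0254). Its call was lost without irinotecan replicate 1 or 2 or vehicle replicate 1, and the change was -0.30 without the last.

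Plagl1 read 8.30, 8.20 and 8.14 with irinotecan and 7.73 and 7.77 with vehicle, and rose by 0.47 ± 0.08 (limma adjusted p = 0.00674). Nnat 17378741 read 11.36, 11.16 and 11.19 with irinotecan and 10.91 and 10.78 with vehicle (0.39 ± 0.09, limma adjusted p = 0.0225). The call of Plagl1 was lost without vehicle replicate 1 (limma adjusted p = 0.0521), and that of Nnat without either vehicle array (limma adjusted p up to 0.129). The dimmer Nnat probe set, 17393764, went the other way and did not pass (-0.37, limma adjusted p = 0.0704), so the 2 probe sets of Nnat disagree. Dlk1 (-0.18, limma adjusted p = 0.441) and Peg3 (0.16, limma adjusted p = 0.193) were not called. The Dlk1 value hung on the vehicle arrays: it was -0.48 and called without vehicle replicate 1 (limma adjusted p = 0.0327), and 0.12 without vehicle replicate 2. Neuron marker sums were 23400 to 23600 with irinotecan and 24000 to 24800 with vehicle, and mural sums were 946 to 1060 and 1390 to 1440. Astrocyte sums were 3680 to 3850 with irinotecan and 4090 to 4650 with vehicle, and oligodendrocyte sums were 365 to 398 and 400 to 440. Progenitor sums were 5460 to 6020 with irinotecan and 4310 to 4780 with vehicle, and microglia sums were 412 to 441 and 344 to 351. Their part in the member values was not tested. Since topotecan and irinotecan were given at different doses in different experiments, their values stand side by side and were not compared.

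**Figure D2:**
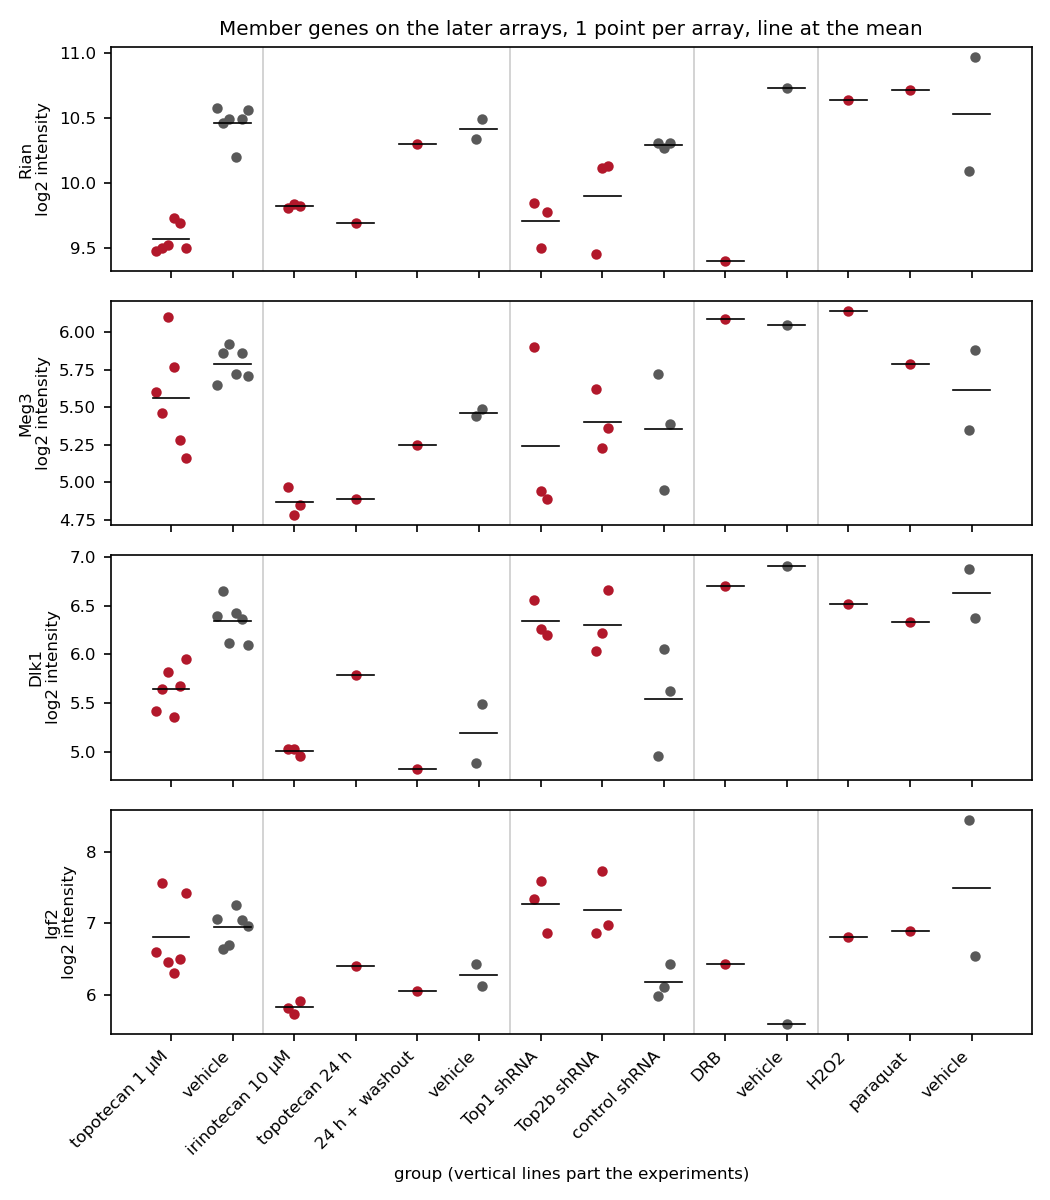
Log2 intensity (y axis) of Rian, Meg3, Dlk1 and Igf2 on each later array, by group (x axis), with treated arrays in red, vehicle or control shRNA arrays in grey and a line at each mean. Rian lies between 9.48 and 9.73 in the 6 arrays of topotecan 1 µM and between 10.20 and 10.58 in their vehicle arrays. Igf2 lies between 6.87 and 7.60 with Top1 shRNA and between 5.99 and 6.43 with control shRNA.

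Most of the small RNA genes of this region were lower after the topoisomerase I drugs. The list of these genes held 57 names, of which 39 had a probe set on the later arrays and 30 were above the dim limit. Each gene was taken by its brightest probe set. At 1 µM topotecan 28 of the 30 were lower and none higher, beside 20.5% of all genes called lower and 38.7% called in either direction. Their median change was -1.47, and that of all genes was -0.01. Mir377, whose seeds are shown above, read 4.34, 3.88, 4.41, 4.84, 4.50 and 4.61 in topotecan cultures. In vehicle cultures Mir377 read 6.95, 6.95, 6.60, 6.17, 6.80 and 6.56. The change of -2.24 ± 0.16 was the largest of the list (limma adjusted p = 8.78e-08), followed by Mir300 (-2.16) and Mir382 (-2.11). All 6 topotecan values of Mir377 lie below the dim limit of 4.96, so the size of its change and its rank rest on dim values. With the limit in place of the topotecan mean, the change from the vehicle mean of 6.67 is -1.71. Mir541 and Mir409 also had all 6 topotecan values below the limit. The mean of the topotecan arrays was below it for 5 of the 30 genes, and the mean of the vehicle arrays for none. The genes without a call were Mir673 (-0.01) and Mir665 (-0.04), both upstream of Rian. Averaged over the 30 genes, the log2 level was 5.77 to 6.09 in topotecan and 6.92 to 7.57 in vehicle arrays.

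Irinotecan gave a like picture, with 28 of 30 lower and none higher, beside 11.1% of all genes called lower and 26.7% in either direction. The median change was -1.31, and that of all genes 0.07. Mir377 read 5.24, 5.21 and 5.21 with irinotecan and 7.11 and 7.13 with vehicle. Its change was -1.90 ± 0.07 (limma adjusted p = 2.09e-05), followed by Mir541 (-1.76) and Mir376b (-1.69). All 3 irinotecan values of Mir541 lie below the dim limit, and with the limit in place of their mean its change is -1.39. Mir673 (0.14) and Mir665 (-0.36) were again not called. Mean log2 levels over the 30 genes were 6.09 to 6.26 with irinotecan and 7.32 to 7.33 with vehicle.

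With topotecan 1 µM and irinotecan the median change was larger further along the chromosome. At 1 µM topotecan the median change was -0.60 for the 5 genes upstream of Rian and -1.07 for the 2 genes within the span of Rian. It was -1.48 for the 17 genes between Rian and Mirg and -1.60 for the 6 genes from the start of Mirg on. With irinotecan the same medians were -0.48, -0.71, -1.34 and -1.55. With Top1 shRNA they were -0.58, -0.87, -1.13 and -1.03, so that the last group did not continue the order. With Top2b shRNA they were -0.68, -0.27, -0.50 and -0.63 and did not follow it. All 23 genes downstream of Rian were called lower with topotecan 1 µM (-2.24 to -1.06) and with irinotecan (-1.90 to -0.98). These 2 drug comparisons use different arrays, but probes in this region may report the same long transcript, so the genes are not independent. The order was noted in these data and is given as a description without a test.

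**Figure D3:**
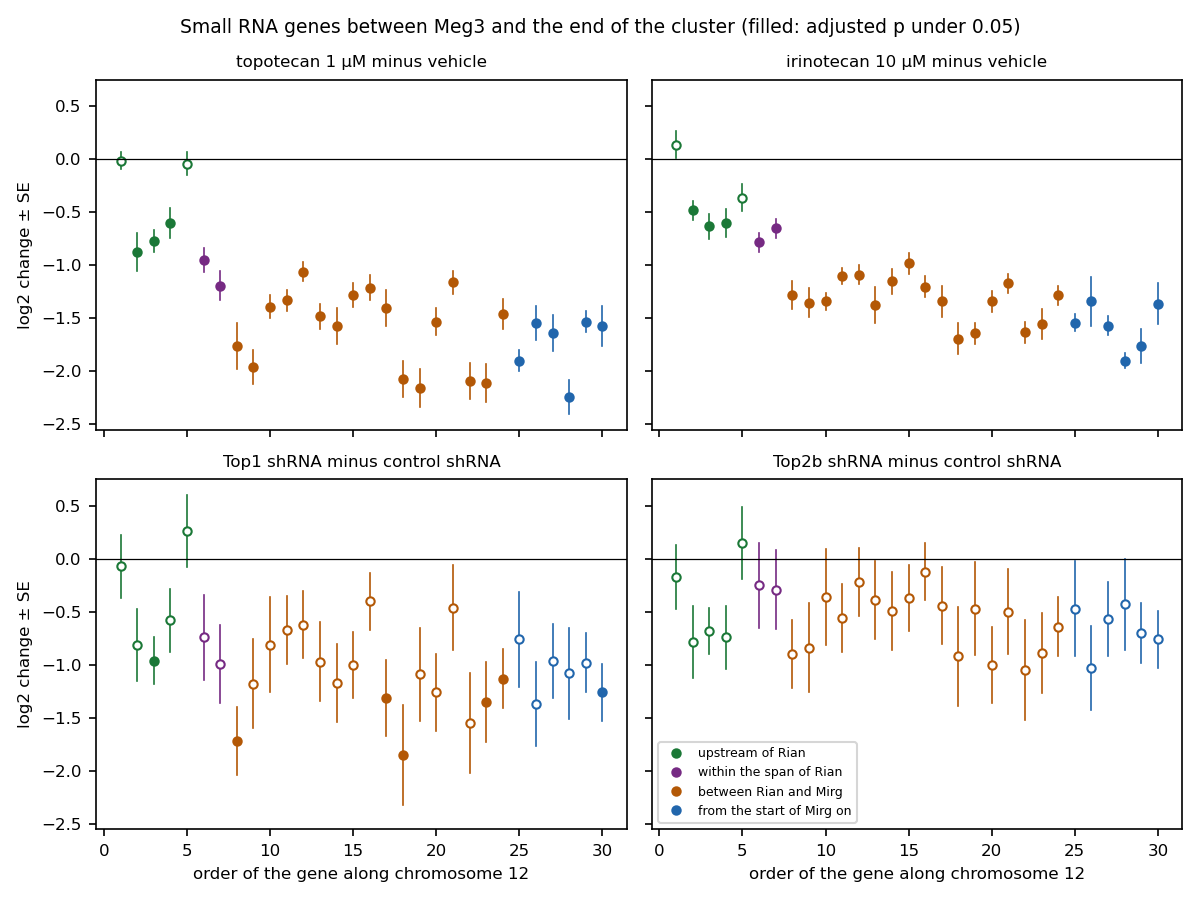
Log2 change ± SE (y axis) of 30 small RNA genes by their order along chromosome 12 (x axis) in 4 comparisons on the later arrays, coloured by position relative to Rian and Mirg. Filled points have an adjusted p under 0.05. With topotecan 1 µM and irinotecan the 23 genes downstream of Rian lie between -2.24 and -0.98, and Mir673, the first gene, lies at -0.01 and 0.14.

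The knockdown arrays are given by their labels, because the targeted genes were not called in the fit without a replicate block. Their results with such a block are not given here. The Top1 probe set read 7.62, 8.39 and 8.29 with the shRNA labelled Top1 and 8.98, 8.46 and 8.55 with control shRNA (-0.57, limma adjusted p = 0.203). The Top2b probe set read 8.62, 6.87 and 6.80 with the shRNA labelled Top2b and 9.30, 8.39 and 8.17 with control shRNA (-1.19, limma adjusted p = 0.235). Replicate 1 of each group stood apart in mean intensity per array, 189.9 to 192.4, against 155.1 to 159.8 for replicates 2 and 3. Which arrays were normalized together is not given in the sources used here. Cell type markers moved with the groups. Fibroblast marker sums were 9560 to 11500 with Top1 shRNA, 8170 to 9450 with Top2b shRNA and 2420 to 3770 with control shRNA. Mural sums were 4820 to 6290, 3850 to 5400 and 982 to 2300, and neuron sums 11100 to 16400, 14000 to 19000 and 23300 to 24100, in the same order of groups. Astrocyte sums were 6060 to 10400, 6000 to 19800 and 5370 to 6010, and progenitor sums 9330 to 11800, 7480 to 12100 and 5590 to 8820. With Top1 shRNA 10 of 18 fibroblast, 6 of 11 mural and 4 of 18 progenitor markers rose, and 5 of 18 neuron markers fell.

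With the shRNA labelled Top1, 1 of the 8 member probe sets was called, Igf2, beside 5.4% called higher, 4.99% called lower and 10.4% called in either direction among all probe sets. Igf2 read 7.34, 7.60 and 6.87 with Top1 shRNA and 5.99, 6.11 and 6.43 with control shRNA, and rose by 1.10 ± 0.30 (SE, n = 3 each; limma adjusted p = 0.0422). The call was lost when any 1 Top1 shRNA array, any 1 control array or Top2b shRNA replicate 3 was left out, at changes of 0.93 to 1.30. Rian read 9.85, 9.50 and 9.78 with Top1 shRNA and 10.31, 10.27 and 10.31 with control shRNA (-0.59 ± 0.24, limma adjusted p = 0.148). Its groups did not overlap. Plagl1 read 9.31, 9.38 and 8.79 with Top1 shRNA and 8.05, 8.38 and 8.22 with control shRNA (0.94, limma adjusted p = 0.104). Dlk1 read 6.56, 6.26 and 6.20 with Top1 shRNA and 4.96, 6.05 and 5.62 with control shRNA (0.79, limma adjusted p = 0.121). Peg3 (0.61), Nnat 17378741 (-0.52), Nnat 17393764 (0.16) and Meg3 (-0.11) were not called.

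On replicates 2 and 3 alone 5 of 8 were called, 3 higher and 2 lower. These were Igf2 (0.97), Plagl1 (0.78), Peg3 (0.57), Rian (-0.65) and Nnat 17378741 (-0.71), with limma adjusted p of 0.0111 to 0.0461. Of all 14113 probe sets 6152 were then called. The part of the fibroblast and mural markers in the Igf2 and Plagl1 values was not tested.

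With the shRNA labelled Top2b none of the 8 was called by limma, beside 1.71% of all probe sets called higher and 2.66% in either direction. Arrays with the same replicate number deviated together here (correlation of 0.36 to 0.47), and this fit holds no replicate term. Unadjusted p was under 0.05 for 2 of the 8, and for 2382 of all 14113 probe sets. Igf2 read 6.86, 7.74 and 6.98 with Top2b shRNA, above every control array, but did not pass (1.02 ± 0.30, limma adjusted p = 0.103). With the replicate number as a block it did (1.02, limma adjusted p = 0.0415). Rian read 9.45, 10.12 and 10.13 with Top2b shRNA (-0.40, limma adjusted p = 0.459). The Top1 change minus the Top2b change was not called for any of the 8 members, or for any of all 14113 probe sets. Unadjusted p was under 0.05 for 820 of the 14113 and for 2 of the 8 members, Nnat 17378741 (-0.83) and Plagl1 (0.99). The interval of the Rian difference was -0.72 to 0.34 (95%). On replicates 2 and 3 alone, Plagl1 (1.29) and Nnat 17378741 (-0.84) were called for this difference. The absence of calls among all probe sets refers to the fit with all replicates. The share called in this smaller fit is not given here.

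Of the 30 small RNA genes 7 fell with the shRNA labelled Top1 and none rose, beside 5.1% of all genes called lower and 10.7% called in either direction. The median change was -0.98, and that of all genes -0.02. Mir379 read 5.34, 4.09 and 4.44 with Top1 shRNA and 6.71, 6.11 and 6.21 with control shRNA (-1.72 ± 0.32, limma adjusted p = 0.0114). Mir376b read 4.97, 4.06 and 4.76 with Top1 shRNA and 5.73, 6.83 and 6.77 with control shRNA (-1.85, limma adjusted p = 0.0343). Mir382 fell by 1.35 (limma adjusted p = 0.0491). In the Top1 arrays all 3 values lay below the dim limit for none of the 30 genes, and the mean did for 5, Mir379 and Mir376b among them. The count hung on single arrays, and so did the background. It was 14 without Top1 replicate 1 and 13 without Top2b replicate 1, where 11.3% and 6.84% of all genes were called lower. It was 4 without Top2b replicate 3, where 3.44% were. It was 1 without Top1 replicate 2, Top1 replicate 3, control replicate 2 or control replicate 3, where 0.881% to 1.66% were. On replicates 2 and 3 alone 25 of 30 were called lower, beside 24.1% of all genes.

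With the shRNA labelled Top2b 0 of the 30 small RNA genes were called by limma, beside 0.984% of all genes called lower and 2.77% in either direction. Unadjusted p was under 0.05 for 11 of the 30, all lower, and for 2382 of all 14113 probe sets in either direction. The median change was -0.53. Mean log2 levels over the 30 genes were 5.42 to 6.43 with Top1 shRNA, 5.88 to 6.67 with Top2b shRNA and 6.88 to 6.96 with control shRNA. The Top1 change minus the Top2b change had a median of -0.43 with 0 calls. Unadjusted p was under 0.05 for 2 genes, and for 820 of all 14113 probe sets. Neuron markers were also lower in these arrays, as given above, and their part in the small RNA values was not tested.

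In the topotecan dose series Nnat was the only 1 of the 7 tested member probe sets with a called slope, beside 1.47% called rising, 2.02% called falling and 3.49% in either direction among all probe sets. Nnat 10477986 read 12.06, 12.07 and 12.01 in the vehicle arrays, 11.99 at 3 nM, 12 at 30 nM and 12.21 at 150 nM. It read 12.26 and 12.23 at 300 nM, 12.23 at 500 nM and 12.33 at 1000 nM. The slope was 0.05 ± 0.01 per step of dose rank (limma adjusted p = 0.0468). The call was lost without any 1 of the 10 arrays, at limma adjusted p of 0.0501 to 0.1. The arrays at 150 nM and above were higher than the rest.

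Vehicle replicates 1 and 2 and the 1000 nM array stood apart from the other 7. Dlk1 read 10.08 and 9.81 in these vehicle arrays and 7.27 at 1000 nM, and 6.18 to 6.61 in the other 7, vehicle replicate 3 included. Igf2 read 10.99 and 10.98 in these vehicle arrays and 9.79 at 1000 nM, and 7.85 to 8.57 in the other 7. The marker sums split in the same way. Astrocyte sums were 26300 and 26800 in vehicle replicates 1 and 2 and 15300 at 1000 nM, against 6110 to 9030 elsewhere. Progenitor sums were 17000, 17200 and 14800, against 8050 to 8820. The Dlk1 slope was -0.35 ± 0.18 (limma adjusted p = 0.343), and no dose order can be read from Dlk1 or Igf2 across this split.

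Rian read 8.74, 8.71 and 9.08 in the vehicle arrays, 9.07 at 3 nM, 9.27 at 30 nM and 8.93 at 150 nM. It read 8.78 and 9.00 at 300 nM, 8.77 at 500 nM and 8.08 at 1000 nM, the lowest of the series. Meg3 read 11.73 to 11.89 in vehicle arrays and 11.44 at 1000 nM (slope -0.05, limma adjusted p = 0.255). Of 28 tested small RNA genes 4 had a called falling slope, beside 2% of all genes called lower and 3.52% in either direction. These were Mir543 (-0.15 per rank), Mir300 (-0.14), Mir539 (-0.13) and Mir667 (-0.12), all downstream of Rian. Without the 3 arrays that stood apart 14 of 28 were called, all falling, beside 5.3% of all genes. The count was 0 without the 3 nM array, either 300 nM array, the 500 nM array, the 1000 nM array or vehicle replicate 3, where 0.857% to 2.58% of all genes had a called falling slope. It was 1 without the 150 nM array (1.32% of all genes) or vehicle replicate 2 (1.08%). With slopes taken over log2(dose + 1) it was 0, beside 0.794%. The median slopes in the order of the chromosome groups above were -0.01, -0.04, -0.13 and -0.14 per rank. The median difference of the 28 genes from the vehicle mean was 0.28 at 3 nM, 0.30 at 30 nM and -0.04 at 150 nM. It was -0.54 and -0.20 at 300 nM, -0.28 at 500 nM and -0.87 at 1000 nM. The vehicle mean includes vehicle replicates 1 and 2, which stood apart. Averaged over the 28 genes, these read 7.42 and 7.45, and vehicle replicate 3 read 7.82. The 3 nM array read 7.85 and the 30 nM array 7.88, so the size of these differences hangs on the vehicle arrays.

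**Figure D4:**
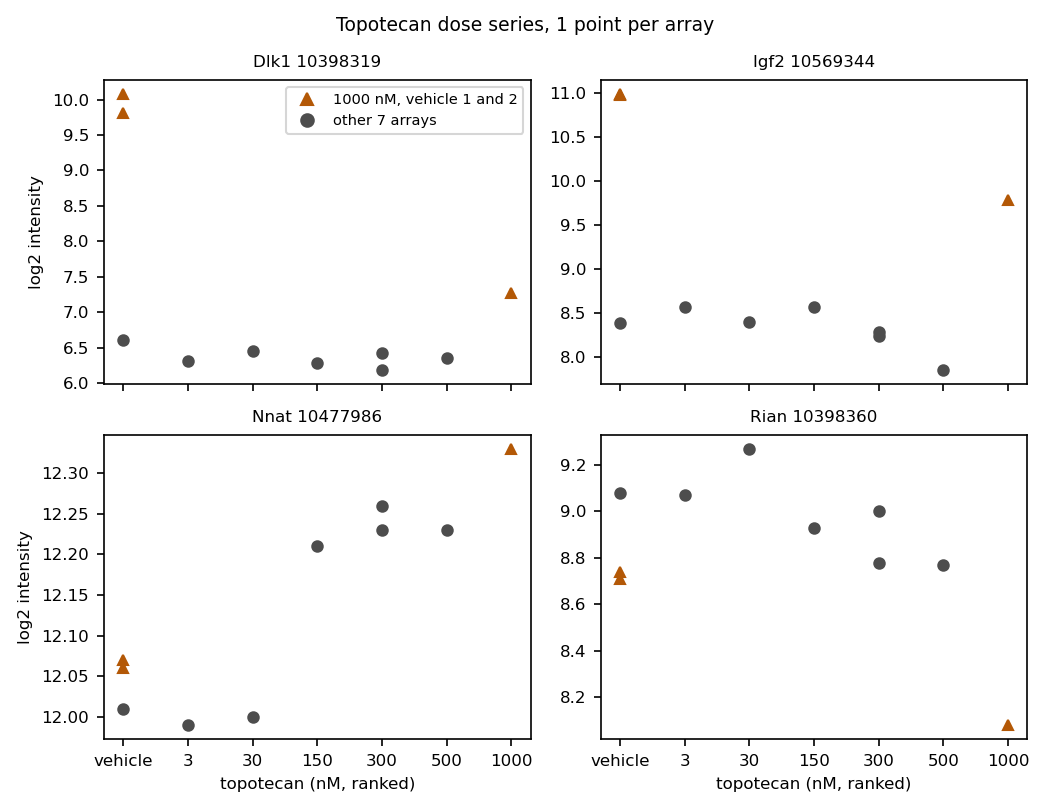
Log2 intensity (y axis) of Dlk1, Igf2, Nnat and Rian on the 10 arrays of the topotecan series by ranked dose (x axis, nM). Triangles mark vehicle replicates 1 and 2 and the 1000 nM array. Dlk1 reads 10.08, 9.81 and 7.27 in these 3 and 6.18 to 6.61 in the other 7.

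Single treated arrays have no test and a difference of at least 1 on the log2 scale from the vehicle mean was taken as large. With DRB Rian read 9.40, against 10.73 in its vehicle array. The difference of -1.32 was the only large one among the 8 member probe sets, beside 18.3% of all probe sets at least 1 lower and 25.1% in either direction. Igf2 read 6.43 with DRB and 5.60 with vehicle, a difference of 0.83. Peg3 differed by -0.61, the 2 Nnat probe sets by -0.70 and -0.82, and Meg3 by 0.04. Of the 30 small RNA genes 28 were at least 1 lower with DRB, beside 18.5% of all genes, with a median of -2.37 against -0.33 for all genes. Astrocyte marker sums were 3010 with DRB and 8830 with vehicle.

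After 24 h of topotecan Rian read 9.69, against 10.34 and 10.49 in the 2 vehicle arrays. With washout it read 10.30. Meg3 read 4.89 after 24 h and 5.25 with washout, against 5.44 and 5.49 with vehicle. No member differed by 1 or more after 24 h, beside 2.7% of all probe sets. Of the small RNA genes 23 of 30 were at least 1 lower after 24 h, beside 2.3% of all genes, with a median of -1.35. With washout none was, and the median was -0.21. Mir377 read 4.72 after 24 h and 6.85 with washout, against 7.11 and 7.13 with vehicle. Its 24 h value lies below the dim limit of 4.96. With 1 array each, the return of these levels after washout has no replicate check.

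With hydrogen peroxide and with paraquat no member differed by 1 or more, beside 2.69% and 5.18% of all probe sets. None of the 30 small RNA genes did, and both medians were 0.06. Igf2 read 6.81 with hydrogen peroxide and 6.90 with paraquat, against 8.45 and 6.55 in vehicle replicates 1 and 2. The treated values thus lay between the 2 vehicle arrays. The mean log2 level of the 30 small RNA genes was 6.97 with hydrogen peroxide and 6.89 with paraquat, against 6.05 and 7.70 in the same vehicle arrays. These 2 vehicle arrays also differed in mural marker sums, 11100 and 3910, and in neuron marker sums, 17200 and 31900.

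**Figure D5:**
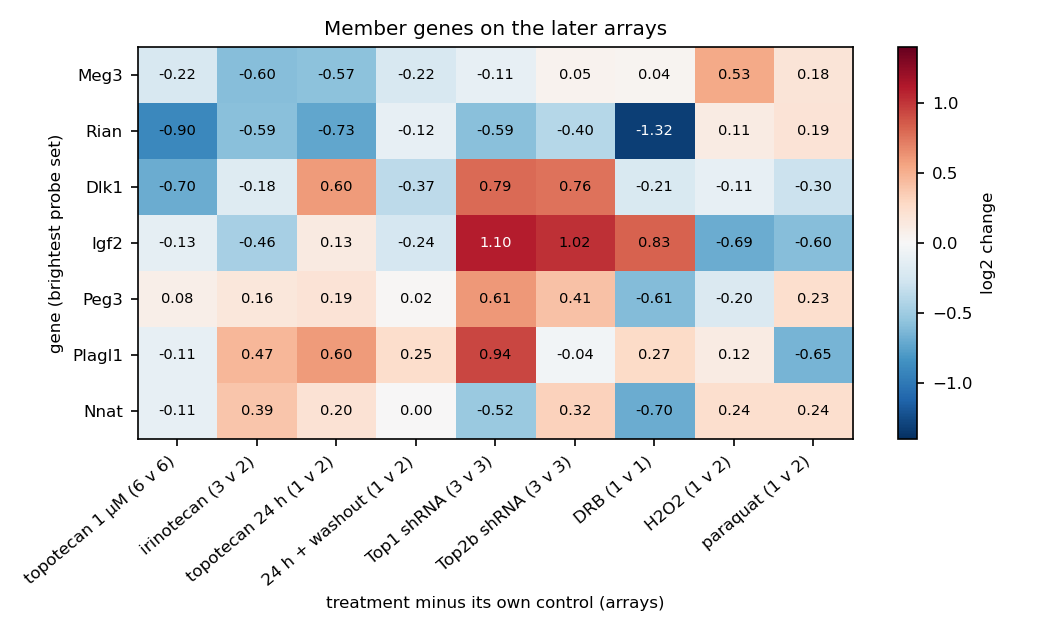
Log2 change of 7 members (y axis, brightest probe set) in 9 comparisons on the later arrays (x axis, with the number of arrays), treatment minus its own control. Rian is at -0.90 with topotecan 1 µM, -0.59 with irinotecan, -0.73 after 24 h of topotecan and -1.32 with DRB, and Igf2 is at 1.10 and 1.02 with the Top1 and Top2b shRNAs.

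A list of 57 other imprinted genes was measured beside the members. At 300 nM topotecan 1 of 31 tested genes rose and 1 fell, beside 1.36% of all genes called higher and 4.35% called in either direction, with a median change of -0.02. Trappc9, a trafficking protein gene spanning 472 kb, fell by 1.52 ± 0.13 (limma adjusted p = 0.00207), and Blcap, the gene in whose intron Nnat lies, rose by 0.71 (limma adjusted p = 0.0468). With ICRF-193 4 of 31 rose and 7 fell, beside 6.73% of all genes called higher and 8.06% called lower, among them Rasgrf1 (0.73) and Nap1l5 (0.59) higher and Usp29 and Kcnq1ot1 (both -0.33) lower. The difference between these drugs was called for Trappc9 alone (-1.32, limma adjusted p = 0.000672), beside 2.13% of all genes called lower and 3.07% in either direction.

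At 1 µM topotecan 8 of 35 rose and 11 fell, with a median of 0.04, beside 18.2% of all genes called higher and 20.5% called lower. The largest changes were in Usp29 (-1.10 ± 0.14, limma adjusted p = 2.45e-05), which lies beside Peg3 and spans 237 kb, and in Peg10 (1.10 ± 0.09, limma adjusted p = 4.73e-07), a retrotransposon-derived gene of 13.2 kb. Trappc9 fell by 0.95 and Htr2a, a serotonin receptor, rose by 0.68. With irinotecan 8 of 35 rose and 5 fell, with a median of 0.07, beside 15.5% of all genes called higher and 11.1% called lower. Trappc9 (-1.14), Usp29 (-0.84) and the non-coding Airn (-0.55) fell and Peg10 (0.71) rose. With Top1 shRNA 2 of 35 rose, Grb10 (1.30) and Mest (1.17), beside 5.58% of all genes called higher. The 1 that fell was Gatm, a creatine synthesis enzyme (-1.76), beside 5.1% of all genes called lower. With Top2b shRNA, where 1.78% of all genes were called higher, Gatm was the only call of 35 (-1.14, limma adjusted p = 0.0492).

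Of 25 listed regulators of imprints, the DNA methylation and zinc finger factors among them, 20 were tested on the later arrays. At 1 µM topotecan 3 rose and 5 fell, and with irinotecan 5 rose and 1 fell, beside the same shares of all genes as for the imprinted list. In the dose series, where 1.53% of all genes had a called rising slope, Zfp57 was the only regulator called (0.09 per rank, limma adjusted p = 0.0447). Zfp57, a zinc finger protein that maintains methylation at imprinted regions, rose by 0.55 at 1 µM topotecan and by 0.72 with irinotecan. None of 20 tested was called at 300 nM, with Top1 shRNA or with Top2b shRNA. Of all genes 4.35%, 10.7% and 2.77% were called in either direction there. With ICRF-193 2 of 20 rose, beside 6.73% of all genes called higher.

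The genes most like Igf2, Dlk1, Meg3, Peg3 and Nnat were taken by Pearson's r over the 34 later arrays after centring each experiment, as a description. For Igf2 they were Cped1 (0.87), Mrc2 (0.86) and Svep1 (0.82). For Dlk1 they were Mapkap1 (0.78), Acta2 (0.77), which is among the mural markers, and Kcne1l (0.76). For Meg3 they were Med13l (0.76), Klf12 (0.74) and Sec14l1 (0.74), and for Peg3 Gas2l1, Mgat4b and Cpt1c (0.80 each). For Nnat they were Tmod2, Ncan and Kif3a (0.85 each). The arrays share experiments and treatments, and no p is given.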

How the data were processed

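Total RNA of cultured cortical neurons was measured on 56 Affymetrix arrays of 3 types. The deposited values are linear intensity per probe set, made by the authors with RMA in Affymetrix Expression Console per the submitters' processing notes, with versions not given in the sources used here. The distributions of values differ between sets of arrays, and values were therefore compared within an experiment only. Mean intensity per array was 571 to 698.3, 388.5 to 401.2 and 137.8 to 211 on the 3 types. The number of arrays limits the precision. No column of another sample was used, since all belonged to these arrays.

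Log2 of the deposited intensity was fitted with limma 3.58.1 (lmFit and eBayes, 2-sided) in R 4.3.3. Fits used the arrays of 1 experiment and all probe sets with a single symbol at or above the 40th percentile of mean log2 (limits 6.39, 6.08 and 4.96). That left 20975, 12731 and 14113 probe sets, and p-values were adjusted by Benjamini-Hochberg over them. Python 3.11.15, pandas 2.3.3, numpy 2.4.6 and matplotlib 3.10.9 did the rest. The fits were tested on simulated data.

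The text names all members, up to 4 other imprinted genes and up to 3 hosted small RNA genes per comparison by largest called change, and 3 genes most like each of 5 members. Further small RNA genes and regulators are named as single exceptions chosen after their values were seen. Members and lists were chosen with earlier results of these data known. Same-numbered samples were checked for pairing by the correlation of their deviations from group means: this was 0.18 to 0.32 for ICRF-193, 0.36 to 0.47 for Top2b shRNA and 0.21 to 0.45 for Top1 against Top2b shRNA, and at or below 0.1 for at least 1 pair in the other tested treatments. The titles give the groups. Alternatives covered normalization, the dim limit, the pseudocount, the choice of probe set, moderation, the replicate block and leaving out each array.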

Additional observations from a re-analysis of the deposited data

Results flagged for a closer look

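Rian in vehicle replicate 4 of the topotecan 1 µM experiment read 10.2 on the log2 scale, and its nearest neighbour among the 6 vehicle arrays read 10.46. The gap, divided by the range of the group, was 0.668, above Dixon's critical value for 6 samples. Chance flags about 1 in 20 such groups, and 20 were checked.

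The change of Mirg 1457030_at differed between topotecan 300 nM and ICRF-193 by -1.81 on the log2 scale in the test of the difference (limma adjusted p = 0.00194).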

How the results depend on the processing

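Member calls were few, so counts moved easily. Calls over all probe sets moved with the settings too, and most counts below stand without that share. Of the values of single probe sets under the alternatives, 1751 of 1837 stayed on their side of the threshold, 51 lost a call and 35 gained one. The sign changed in 66, none of them called in either fit. Causes were not tested.

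For topotecan 300 nM (2 calls) the count was 1 with the brightest or the mean of the probe sets of a gene, which test fewer features, and 0 with the replicate block, where 1 probe set of all 20975 was called. For ICRF-193 (4) it was 2 with the mean of probe sets and 7 with the replicate block. For irinotecan (5) it was 3 without the dim filter and 3 with the mean of probe sets. For Top1 shRNA (1) it was 0 without the filter, 0 with quantile normalization, 2 with the block and 5 on replicates 2 and 3 only. For Top2b shRNA (0) it was 1 with the block and 1 on replicates 2 and 3 only. For the dose trend (1) it was 0 without the filter, with quantile normalization, with the mean of probe sets and over log2(dose + 1). For Top1 minus Top2b shRNA (0) it was 2 on replicates 2 and 3 only.

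Leaving out 1 array at a time gave counts of 1 to 3 for topotecan 300 nM, 1 to 5 for ICRF-193, 3 to 5 for irinotecan and 2 to 3 for topotecan 1 µM. It gave 0 to 2 for Top1 shRNA, 0 for Top2b shRNA and for the dose trend, and 1 to 6 for the difference between topotecan 300 nM and ICRF-193.

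The same alternatives for the small RNA genes were added after seeing the data. At 1 µM topotecan the count was 28 in each alternative except 36 of 39 without the filter, and with irinotecan it was 26 to 29, or 33 of 39 without the filter. For Top1 shRNA (7) it was 1 without the filter, 13 with the block, 25 on replicates 2 and 3 only and 1 to 14 leaving out 1 array. For Top2b shRNA (0) it was 3 on replicates 2 and 3 only. For the dose trend (4) it was 2 without the filter, 0 with quantile normalization, 0 over log2(dose + 1), 14 on 7 arrays and 0 to 4 leaving out 1 array. Same-numbered samples paired by the correlation of all pairs with ICRF-193, with Top2b against control shRNA and with Top1 against Top2b shRNA. The dim limit and the single later Meg3 probe set bound what can be said of Cdkn1c and Meg3.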
